A study of Capra hircus with 40 samples.

Results

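The ovary and the uterus of female Jining gray goats were compared for how far the level of each gene moved between day 1 and month 6 after birth. The comparison used 20 of the 40 RNA sequencing libraries of the series: 5 of ovary at day 1, 5 of ovary at month 6, 5 of uterus at day 1 and 5 of uterus at month 6, chosen by their labelled tissue and age. The labels number the libraries of a group as individuals, so the 5 of a group were taken as 5 goats. All the goats were kept in the same way on 1 farm, and the labels name no treatment, mutation or transgene in any group. They do not say whether an ovary and a uterus with the same number came from 1 goat, or whether a whole organ or a piece of it was taken. The other 20 libraries, at months 2 and 4, entered the fit to estimate the spread between animals and are shown only where the course between day 1 and month 6 is described.

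The mammalian ovary is born with its stock of oocytes, most of them resting in small follicles, and that stock shrinks steadily as follicles die or start to grow. The ruminant uterus is born with a simple lining, and its glands, which later feed the early embryo with secreted proteins, form after birth. Months of growth and the approach of puberty follow in both organs, so a gene can move in 1 organ, in both alike, or in opposite directions.

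Levels are given as CPM, the count of a gene in proportion to the total count of its library, scaled to 1e6 counts. The measure compared is a difference of differences on the log2 scale: the change in the ovary (month 6 minus day 1) minus the change in the uterus (month 6 minus day 1). A negative value means that the ovarian change lay below the uterine change, and a positive value that it lay above. It was tested with edgeR's quasi-likelihood test over all genes, and called genes are those whose p, adjusted by the Benjamini-Hochberg method, was under 0.05 and whose log2 difference was at least 1 in size. All adjusted p-values below are from edgeR unless another tool is named, and values after ± are the standard error (SE) for log2 differences and the standard deviation (SD, n = 5) for CPM. The SE was derived from the test, as the size of the difference divided by the square root of the test's F statistic. The words higher and lower are used of measured levels, except where a gene or call is itself named higher or lower. There they stand for a positive or a negative difference. Only the difference in change between the organs was tested.

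The 20 libraries held between 43.5 and 62.7 M counts each. The share of counting error in the spread between goats was not separated, and it is larger where a group is near 0 counts. Each library was checked against genes that mark its tissue, and 1 did not match. Ovary day 1 library 3 held FSHR, the receptor for follicle-stimulating hormone on granulosa cells, at 0.0701 CPM, against 2.91 to 234 in the other 9 ovary libraries. ZP3, a protein of the egg coat, had no count in it, against 5.17 to 178. In their place this library had ADIPOQ, which encodes adiponectin of fat cells, at 1583 CPM and UPK3A, a protein of the bladder lining, at 151 CPM, against at most 0.530 and 3.69 in the other ovary libraries. The 22 genes of the adipocyte list summed to 10401 CPM in it and to between 285 and 612 CPM in the other 4 ovary libraries of day 1. The counts and the differences of called genes are therefore given with that library and without it, when ovary at day 1 holds 4 goats. In the other libraries some markers separated the organs and some did not. HOXA11, a patterning gene of the uterus, was at 17.6 to 125 CPM in the uterus and at most 1.37 in the 9 remaining ovary libraries. FSHR and ZP3 were at most 0.146 and 0.374 CPM in the uterus. The epithelial marker EPCAM reached 260 CPM in those ovaries, within its uterine range of 85.7 to 436, and ESR1 and PGR also overlapped between organs. FOXL2 of granulosa cells was at 0.912 and 0.805 CPM in ovary day 1 libraries 1 and 2, within its uterine range of 0.255 to 6.39.

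With all libraries 48 of 20518 genes were called, or 0.234% of those tested. The change was lower in the ovary than in the uterus for 44 of them (0.214%) and higher for 4 (0.0195%). Without ovary day 1 library 3 the count was 175 of 20785 (0.842%), with 152 lower (0.731%) and 23 higher (0.111%). Both sets shared 40 genes, which are 83.3% of the 48 and 22.9% of the 175. At an unadjusted p under 0.05 there were 2270 genes with all libraries, 1619 of them lower, and 2423 without the library, 1681 of them lower. The median difference over all genes was -0.09 with all libraries and -0.06 without that library, and 56.9% and 54.6% of all genes lay below 0. A fit of the 4 groups alone, which estimates the spread from 20 libraries, called 7 genes (0.0356% of those tested), and 60 (0.300%) without ovary day 1 library 3.

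The called genes were sorted by whether the fitted log2 change within an organ was at least 1 in size. With all libraries, 24 of the 44 lower genes had opposite changes, down in the ovary and up in the uterus. Another 11 had a change of that size in the uterus alone and 7 in the ovary alone. The fitted uterine change was upward in 44 of the 44. Without ovary day 1 library 3 the lower set held 52 genes with opposite changes, 16 with the uterine change alone, 63 with the ovarian change alone and 20 with neither change reaching 1. Of the 23 higher genes without that library, 14 had the uterine change alone, and the fitted uterine change was downward in 23 of 23. Genes called lower were selected for an ovarian change below the uterine one, and those called higher for the reverse. That selection favours these signs, and the same shares over all genes were not counted.

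**Figure D1:**
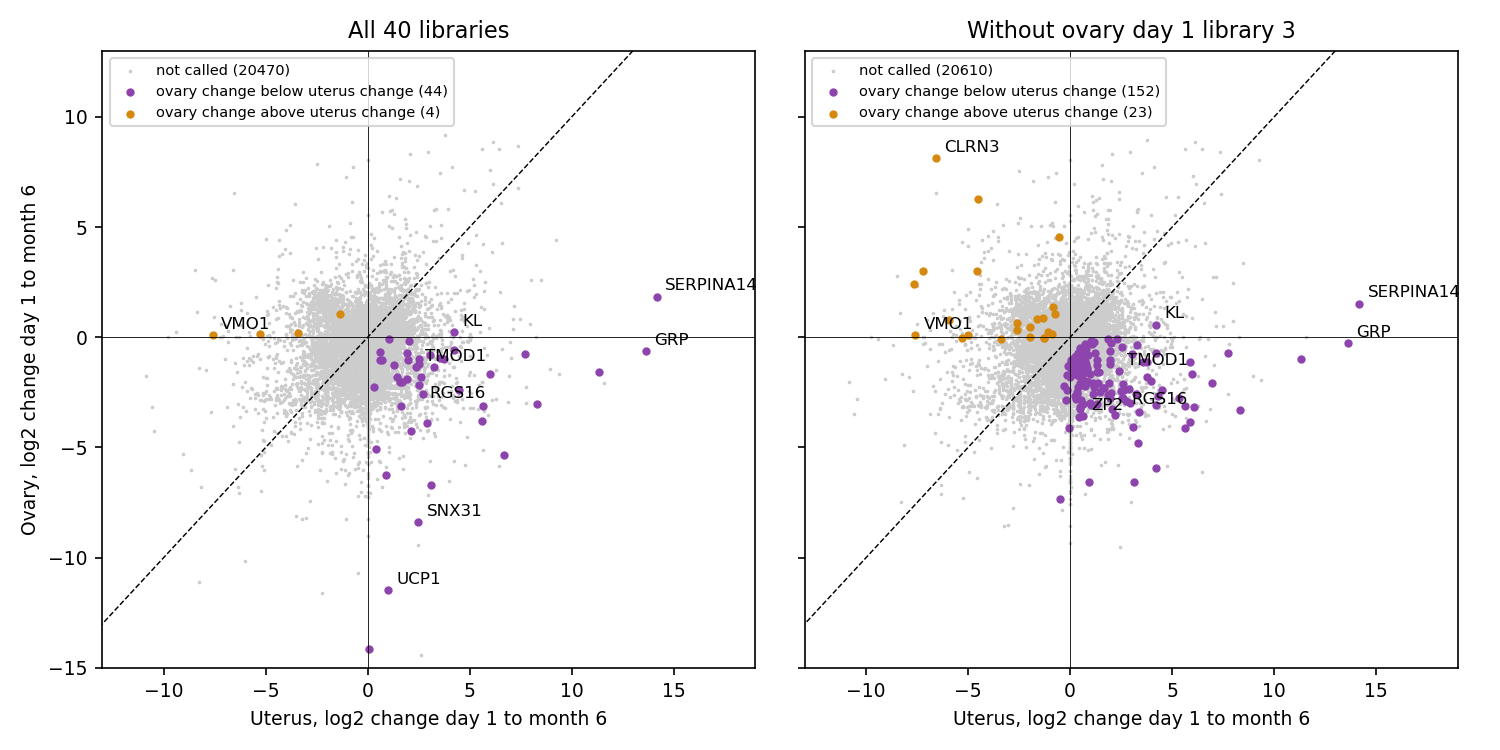
Fitted log2 change from day 1 to month 6 in the uterus (x axis) and in the ovary (y axis) for every gene tested, with all 40 libraries (left) and without ovary day 1 library 3 (right). Purple points are the 44 and 152 genes whose ovarian change lay below the uterine one, orange points the 4 and 23 above it, and the dashed line marks equal change. Most purple points lie to the right of 0 on the x axis and below 0 on the y axis, GRP and SERPINA14 stand far to the right, and UCP1 and SNX31 are called only with the library.

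Genes of uterine secretion gave the largest uterine gains among the named genes called. GRP encodes gastrin-releasing peptide, a signalling peptide that uterine glands make in sheep and cattle. It was at 0, 0.0526, 0.0533, 0.0692 and 0.347 CPM in the 5 uteri of day 1 and at 248, 5841, 94.9, 194 and 101 CPM in those of month 6. In the ovary it was at 0.162, 0.236, 0.298, 0 and 0.203 CPM at day 1 and at 0.419, 0, 0, 0.0460 and 0.0780 CPM at month 6. The uterine groups did not overlap, with library 2 of month 6 far above the other 4, while the ovarian groups overlapped near 0. The log2 difference was -14.25 ± 1.96 (adjusted p = 0.000374), -13.91 ± 2.13 without ovary day 1 library 3 (0.00119) and -11.23 without uterus month 6 library 2 (0.000353).

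SERPINA14 encodes the uterine serpin, also called uterine milk protein, a major secretion of ruminant glands. It was at 0, 0.0526, 0.195, 0.0692 and 0 CPM in the uterus at day 1 and at 38.3, 6044, 1.94, 1.32 and 20.1 CPM at month 6. All month 6 uteri lay above all day 1 uteri, but library 2 alone carried most of the total. In the ovary SERPINA14 was at 0 to 5.40 CPM at day 1 and 1.52 to 12.2 CPM at month 6, with overlap. Its difference was -12.34 ± 2.54 (adjusted p = 0.0343), or -12.65 ± 2.53 without ovary day 1 library 3 (0.0177). Without uterus month 6 library 2 it was -6.05 and not called (adjusted p = 0.200).

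The same uterus stood out for other genes. CXCL14, a chemokine of epithelia, was at 66.5, 2713, 11, 6.07 and 4.82 CPM in the uteri of month 6 against 0.830 to 4.05 at day 1, and IGFBP1, which binds insulin-like growth factors, was at 0.510, 234, 0.237, 0.498 and 0.0980 CPM against 0 to 0.296. For IGFBP1 the other 4 uteri of month 6 overlapped those of day 1. Both were called with all libraries (CXCL14 -8.51 ± 1.84, adjusted p = 0.0368; IGFBP1 -11.32 ± 2.56, adjusted p = 0.0490). Without ovary day 1 library 3 they were at -8.44 (0.0242) and -11.60 (0.0242). Neither was called without uterus month 6 library 2, where they stood at -3.84 (0.279) and -4.17 (0.524). PTGS2, the inducible enzyme of prostaglandin synthesis, followed the same layout without being called. It was at 83.7, 1576, 4.75, 10.9 and 6.74 CPM in the uteri of month 6, at 3.47 to 7.52 at day 1 and at 2.88 to 11.9 in the ovaries of month 6 (-5.57 ± 1.32, adjusted p = 0.0585, and -5.11 and 0.0527 without ovary day 1 library 3). Without uterus month 6 library 2 it was at -1.90 (0.506). The 33 genes of the uterine epithelium and gland list summed to 17202 CPM in uterus month 6 library 2, and the median of the 5 uteri was 1773. Over the 20 fits that each left out 1 library, SERPINA14 was called in 11, CXCL14 in 8 and IGFBP1 in 7. The part of that library's gland content in these values beyond the fits without it was not tested.

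KL showed a uterine gain that every uterus shared. It encodes klotho, a coreceptor for a fibroblast growth factor that controls phosphate and vitamin D. It was at 2.21, 1.61, 0.942, 3.11 and 1.92 CPM in the uterus at day 1 and at 47.5, 43.4, 30.0, 30.7 and 25.9 CPM at month 6, without overlap. In the ovary it was at 5.01, 4.69, 7.81, 2.97 and 3.06 CPM and then at 3.84, 6.24, 3.57, 11 and 4.07 CPM, with overlap. The difference was -4.00 ± 0.63 (adjusted p = 0.00178) and -3.65 ± 0.61 without ovary day 1 library 3 (0.00438), and it stayed called whichever of the 20 libraries was left out.

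FAM188A, a deubiquitinase also known as MINDY3, showed the smallest difference of the named genes called in both fits. It was at 55.5, 62.6, 43.9, 68.0 and 58.3 CPM in the uterus at day 1 and at 132, 125, 102, 123 and 92.9 CPM at month 6, again without overlap between the uterine groups. The ovary held 51.4 to 100.3 CPM and 65.8 to 84.9 CPM, so the difference was -1.13 ± 0.20 (adjusted p = 0.0108) and -1.22 ± 0.19 without ovary day 1 library 3 (0.00201). It was called in each of the 20 fits that left out 1 library, but not in the fit of the 4 groups alone (adjusted p = 0.0784). ALOX12, an arachidonate lipoxygenase, was at 9.19, 54.1, 2.23, 6.90 and 2.88 CPM in the uteri of month 6 against 0.604 to 1.65 at day 1 and was called (-4.48 ± 0.86, adjusted p = 0.0230, and -4.66, 0.00920 without ovary day 1 library 3). Without uterus month 6 library 2 it was at -2.97 (0.0727).

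A second set moved in opposite directions, with lower levels in the ovary and higher levels in the uterus at month 6 than at day 1. TMOD1, which caps the slow-growing end of actin filaments, was at 40.6, 45.8, 12.6, 17.9 and 38.0 CPM in the ovary at day 1 and at 11, 17.4, 9.41, 12.4 and 9.59 CPM at month 6. In the uterus it was at 3.49, 4.77, 3.31, 5.64 and 3.47 CPM and then at 34.0, 7.54, 25.6, 16.3 and 21.5 CPM. The uterine groups did not overlap, and in the ovary only day 1 library 3 fell within the month 6 range. The difference was -3.74 ± 0.58 (adjusted p = 0.00178), with a fitted change of -1.35 in the ovary and 2.38 in the uterus, and -3.91 ± 0.57 without the library (0.000753). It was called whichever of the 20 libraries was left out.

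RGS16, which shuts off signals from G proteins, was at 76.4, 115, 3.22, 62.0 and 118 CPM in the ovary at day 1 and at 22.5, 22.6, 26.5, 12.5 and 20.5 CPM at month 6. The uterus went from 2.07, 1.56, 0.462, 1.94 and 0.694 CPM to 8.77, 21.0, 3.64, 2.76 and 3.08 CPM. Apart from day 1 library 3, which lay below all ovaries of month 6, the groups of each organ did not overlap. The difference was -4.40 ± 0.80 with that library (adjusted p = 0.0124) and -4.71 ± 0.67 without it (0.000753). It was called whichever of the 20 libraries was left out, but not in the fit of the 4 groups alone with all 20 (adjusted p = 0.172). PAQR7, a membrane receptor for progestins, was at 3.73, 4.58, 1.02, 1.24 and 3.94 CPM in the ovary at day 1 and 0.351 to 1.17 at month 6, and at 0.533 to 0.867 in the uterus at day 1 and 0.920 to 4.44 at month 6. Neither organ's groups overlapped except through ovary day 1 library 3, and the difference was -3.78 ± 0.76 (adjusted p = 0.0324), or -3.98 ± 0.76 without that library (0.010).

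Other lower genes called in both fits had their levels near 0 in at least 1 group. RFX6, a transcription factor known from pancreatic islets, was at 0.334 to 1.70 CPM in the ovary at day 1 and 0 to 0.343 at month 6, against 0 to 0.245 and 0.725 to 7.67 in the uterus (-8.74 ± 1.80, adjusted p = 0.0343). KCNN4, a calcium-activated potassium channel, was at 1.80 to 9.94 CPM and 0.419 to 2.24 in the ovary and at 0.0346 to 0.640 and 0.216 to 22.4 in the uterus (-6.89 ± 1.40, adjusted p = 0.0343). Its highest uterus was month 6 library 1, without which it was at -4.85 (adjusted p = 0.0892), and RFX6 was at -8.04 without uterus month 6 library 2 (0.0620). ABCG5, a sterol transporter, had no count in any ovary of month 6 and 66 counts over the 5 ovaries of day 1. That is at least 20.5-fold lower at month 6, taking 3 counts over the group as the limit of a count of 0, and the uterus stood at 0 to 0.0985 and 0 to 1.11 CPM (adjusted p of the difference = 0.0324). LOC102182197, without a name in RefSeq, had 38 counts over the ovaries of day 1 and 2 over those of month 6, a ratio of 17.7 (counting interval 4.58 to 151.5), and its difference had an adjusted p of 0.050 after rounding, under the threshold. Without ovary day 1 library 3 the differences were -8.76 for RFX6 (0.0202) and -6.87 for KCNN4 (0.0198), and the adjusted p was 0.0198 for ABCG5 and 0.0235 for LOC102182197. PAQR7, RFX6, KCNN4 and ABCG5 each lost the call in between 6 and 8 of the 20 fits that left out 1 library, with adjusted p at most 0.0892, and LOC102182197 was called in 3 of the 20.

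**Figure D2:**
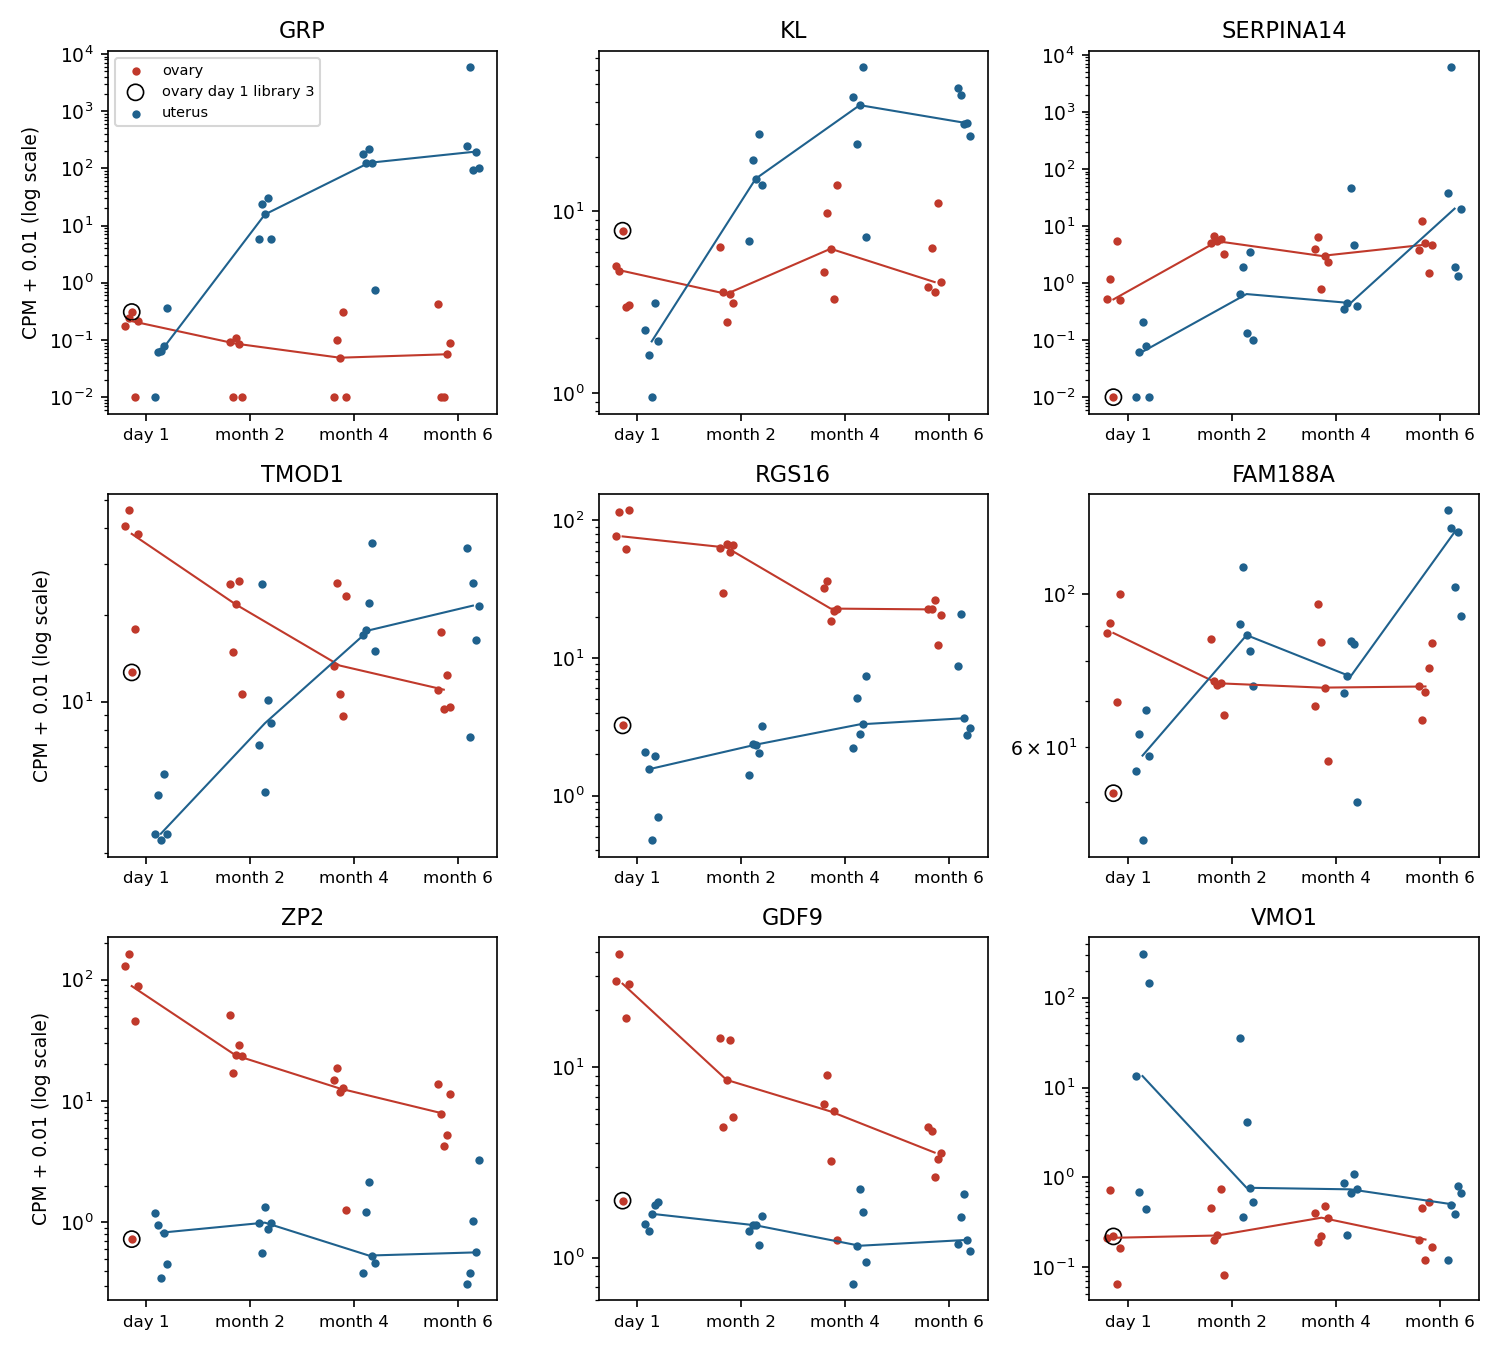
Level of 9 named genes in each of the 40 libraries, as CPM + 0.01 on a log axis, by age, with ovary in red and uterus in blue. Lines join the group medians and the circle marks ovary day 1 library 3. GRP, KL and SERPINA14 gain in the uterus, TMOD1 crosses, RGS16 draws together, ZP2 and GDF9 descend in the ovary alone with the circled library at uterine level, and VMO1 is high in 3 uteri of day 1.

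Some genes of the oocyte and germ line were not called with all libraries and were called without ovary day 1 library 3. Those given by library below had their lowest levels of the 5 ovaries of day 1 in that library. Most such genes were called in neither fit. Without the library, 3 of 20 tested members of the oocyte list and 2 of 20 of the germ cell and meiosis list were called, beside 0.842% of all genes. GDF9 and ZP3 were among the markers by which the tissue of each library was checked. Leaving out ovary day 1 library 3 therefore raises the oocyte levels of day 1 by construction, and these calls are not independent of that choice. In bulk tissue, fewer cells of a type and less RNA per cell cannot be told apart, which holds for every cell type named here. ZP2, a glycoprotein of the egg coat, was at 128, 163, 0.718, 45.5 and 88.4 CPM in the ovaries of day 1 and at 13.8, 7.85, 4.25, 5.24 and 11.3 CPM in those of month 6. Library 3 lay below every ovary of month 6 and the other 4 above all of them, while the uterus held at most 3.27 CPM at either age. The difference was -4.20 ± 0.82 without the library (adjusted p = 0.0147) and -3.88 ± 1.01 with it (0.0843). GDF9, a growth factor that oocytes send to granulosa cells, was at 28.4, 39.2, 1.98, 18.1 and 27.3 CPM and then at 4.85, 4.58, 2.63, 3.29 and 3.55 CPM in the ovary, and between 1.08 and 2.14 in the uterus. The layout was that of ZP2, and the difference was -2.66 ± 0.50 without the library (adjusted p = 0.00918) and -2.37 ± 0.61 with it (0.0843).

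TDRD6, a scaffold of germ cell RNA granules, was at 17.8, 20.8, 0.788, 8.05 and 21.5 CPM in the ovary at day 1 and at 3.06 to 5.67 at month 6, and DND1, an RNA-binding protein that germ cells need to survive in mice, at 21.6, 24.1, 1.05, 3.80 and 19.2 and 2.21 to 4.93. For DND1, library 4 of day 1 also fell within the month 6 range. The differences without library 3 were -2.94 ± 0.53 (adjusted p = 0.00799) and -2.95 ± 0.60 (0.0189). MOV10L1 and TDRD1, which take part in the small RNA pathway that silences transposons in the germ line, stood at -5.80 (0.0337) and -5.37 (0.0481). NLRP14, a germ cell member of the NLR family named here because its list had 3 calls, stood at -3.64 (0.0299). With all libraries TDRD6 was at -2.63 ± 0.67 (0.0790), DND1 at -2.65 ± 0.70 (0.0878), MOV10L1 at -5.48 ± 1.5 (0.0957), TDRD1 at -5.05 ± 1.58 (0.158) and NLRP14 at -3.32 (0.135). With library 3 kept, TDRD6 and DND1 were also called when ovary day 1 library 4 was left out, and MOV10L1 when uterus day 1 library 1 was. Without library 3, ZP2, GDF9 and TDRD6 were called in all 19 fits that left out a further library, whereas DND1 lost its call without ovary day 1 library 2 or 5 (adjusted p at most 0.0571), MOV10L1 in 13 of the 19 (at most 0.0938) and TDRD1 in 15 (at most 0.119).

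The other 6 of the 10 lower genes named for that fit are not known for a single cell type. CLP1, an RNA kinase of transfer RNA splicing, was at 22.8, 28.8, 4.82, 17.8 and 35.7 CPM in the ovary at day 1 and at 8.95, 9.99, 9.54, 9.48 and 9.86 CPM at month 6. Library 3 again lay below all ovaries of month 6 and the others above them. The difference was -1.69 ± 0.31 (adjusted p = 0.00869). PAIP1, which binds the poly(A)-binding protein in translation, stood at -1.29 (0.010), NAT10, an RNA acetyltransferase, at -2.27 (0.0189), SLC7A6, an amino acid transporter, at -2.26 (0.0181), IRAK2, a kinase of innate immune receptors, at -1.66 (0.0181) and HMGXB3, an HMG box protein, at -1.14 (0.0177). These 6 genes had adjusted p from 0.0664 to 0.114 with all libraries. In each of the 6, ovary day 1 library 3 had the lowest level of the 5 ovaries of day 1. PAIP1 lost its call without ovary day 1 library 2, NAT10 and SLC7A6 without library 2 or 5, IRAK2 without library 5, and HMGXB3 without library 5 or uterus month 6 library 2, with adjusted p at most 0.0572.

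The lists held 2 further lower calls without ovary day 1 library 3. IRF8, a transcription factor of myeloid cells, was at 71.9, 71.4, 6.75, 20.5 and 85.3 CPM in the ovary at day 1 and at 10.5 to 23.8 at month 6, with the uterus at 5.15 to 15.1 and 8.27 to 21.1 (-2.34 ± 0.52, adjusted p = 0.0242). STMN2, a microtubule regulator of neurons, was at 118, 93.3, 0.0350, 1.08 and 48.1 CPM in the ovary at day 1 and 8.97 to 29.4 at month 6, and at 11.4, 5.64, 7.84, 13.5 and 0.979 and then 42.6, 34.0, 220.0, 71.2 and 149 CPM in the uterus (-5.54 ± 1.18, adjusted p = 0.0213). With the library they were at -2.07 ± 0.60 (0.115) and -5.22 ± 1.37 (0.0844). The uterine groups of STMN2 did not overlap, and libraries 3 and 4 of ovary day 1 lay below every ovary of month 6. IRF8 lost its call in 4 of the 19 fits that left out a further library (adjusted p at most 0.0907) and STMN2 in 2, those without ovary day 1 library 2 or 5 (at most 0.0571). Library 4 also held the second lowest ZP2, GDF9, DND1 and TDRD1 of the ovaries of day 1 and the highest FSHR (234 CPM) and FOXL2 (86.1 CPM), both genes of granulosa cells. Its part in these results was tested only by leaving it out, which raised the count without library 3 from 175 to 320.

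Calls in the other direction were fewer and came mainly from genes that were high in some uteri of day 1. The most stable was LOC102174895, a protein-coding gene without a name in RefSeq. It was at 181, 112, 155, 123 and 68.4 CPM in the uterus at day 1 and at 26.5, 51.0, 56.4, 41.4 and 68.8 CPM at month 6, and at 174, 174, 59.4, 99.9 and 145 and then 197, 388, 217, 316 and 222 CPM in the ovary. The ovarian groups did not overlap, and in the uterus 1 library of day 1 and 1 of month 6 lay side by side. The difference was 2.40 ± 0.43 (adjusted p = 0.0108) and 2.24 ± 0.43 without ovary day 1 library 3 (adjusted p = 0.010), and it was called whichever of the 20 libraries was left out.

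VMO1, a homologue of a protein of the hen's egg membrane, was at 13.4, 0.684, 309, 0.432 and 145 CPM in the uterus at day 1 and at 0.112, 0.488, 0.384, 0.786 and 0.666 CPM at month 6. Libraries 1, 3 and 5 of day 1 were above all uteri of month 6, while libraries 2 and 4 were among them. The ovary held at most 0.707 CPM at either age. The difference was 7.70 ± 1.73 (adjusted p = 0.0466) and 7.67 ± 1.85 without ovary day 1 library 3 (0.0343). JAKMIP2, a microtubule-binding protein, was at 16.1, 12.9, 71.9, 12.8 and 150.2 CPM in the uterus at day 1 and 0.0938 to 3.55 at month 6, and ZNF385B, a zinc finger protein, at 1.77, 2.93, 9.54, 6.48 and 12.6 and 0.287 to 1.3. For both the uterine groups did not overlap and the ovarian groups did. Their differences were 5.43 ± 1.24 (adjusted p = 0.050 after rounding, under the threshold) and 3.58 ± 0.80 (0.0438), or 5.24 (0.0417) and 3.32 (0.0318) without ovary day 1 library 3. These 3 genes lost their calls in 16, 15 and 12 of the 20 fits that left out 1 library, with adjusted p at most 0.123.

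Without ovary day 1 library 3, the 2 named genes with the smallest p among the higher calls gained by it were MATN4, a matrilin of the extracellular matrix, and CLRN3, a membrane protein of the clarin family. MATN4 was at 0.527, 0.353, 9.86, 0.130 and 0.0677 CPM in the ovary at day 1 and 4.48, 0.161, 0.0877, 5.54 and 0.312 at month 6, and at 7.51, 0.824, 61.9, 1.11 and 15.2 and then 0.622, 0.413, 0.639, 0.422 and 1.55 CPM in the uterus. CLRN3 had no count in the 4 ovaries of day 1 other than library 3 and 195 counts over those of month 6, at least 55.0-fold higher against 3 counts over the group, and it was at 1.24, 0.175, 13.4, 0.138 and 4.98 CPM in the uterus at day 1 and at most 0.0958 at month 6. In the ovaries of month 6 the higher levels of both were those of libraries 1 and 4, and the ovarian groups overlapped. Those same 2 libraries held EPCAM, a marker of epithelial cells, at 260.0 and 204 CPM, against at most 6.01 in the other 3 ovaries of month 6, and its part in the result was not tested. The MATN4 difference was 7.57 ± 1.62 (adjusted p = 0.0215), against 4.30 ± 1.66 with the library (0.294). The CLRN3 difference had an adjusted p of 0.0213 without the library and 0.0843 with it. Both lost their call without ovary day 1 library 2 or 5, and MATN4 also without uterus day 1 library 3 (adjusted p at most 0.0721).

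The other 8 higher genes named for that fit had differences from 1.06 (ITPRIPL2) to 10.04 (DMP1, a matrix protein of bone and teeth). DMP1 was at 14.4, 29.0, 0.107, 1.12 and 0 CPM in the uterus at day 1, high in libraries 1 and 2 alone, and at most 0.0766 at month 6 (adjusted p = 0.0445). ETV1, a transcription factor of the ETS family, was at 48.3, 35.8, 29.4, 19.4 and 36.2 CPM in the uterus at day 1 and 5.76, 3.04, 12.3, 9.35 and 23.8 at month 6, and at 5.96 to 12.2 and 7.74 to 20.3 CPM in the ovary, with some overlap in each organ (2.41 ± 0.56, adjusted p = 0.0315). SGCB, a sarcoglycan that links muscle cells to their matrix, was at 69.0, 49.3, 158, 60.2 and 46.4 CPM in the ovary at day 1 and 41.7 to 77.1 at month 6, against 59.6 to 164 and 42.7 to 54.9 in the uterus (1.27 ± 0.31, adjusted p = 0.0337). HS3ST5, which modifies heparan sulfate, stood at 6.70 (0.0337), ENDOD1, a nuclease domain protein, at 2.24 (0.0433), ZNF207, a spindle protein of dividing cells, at 1.81 (0.0433) and SGPP1, a phosphatase of sphingosine phosphate, at 1.34 (0.0456). With all libraries none of the 8 was called, at adjusted p between 0.0538 (DMP1) and 0.506 (SGCB). They lost their calls in between 8 and 15 of the 19 fits that left out a further library, with adjusted p up to 0.400, that of DMP1.

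Of the 8 genes called only with ovary day 1 library 3, the 5 with the smallest p are given here, and 3 of them stood far above the other ovaries in that library. UCP1, through which brown fat makes heat, was at 0.223, 0.275, 1311, 0 and 0 CPM in the ovary at day 1, and at most 0.219 CPM in any library of the other 3 groups. DGAT2, an enzyme of triglyceride synthesis, was at 5.07, 5.30, 450.2, 7.73 and 6.14 CPM, and SNX31, a sorting nexin known from the bladder lining, at 0.243, 0.530, 56.7, 0 and 0.339 CPM. In each the other 4 ovaries of day 1 lay far below library 3. The differences with the library were -12.46 ± 2.75 (adjusted p = 0.0419), -5.49 ± 1.22 (0.0437) and -10.86 ± 2.22 (0.0343). Without it they were -1.11 (0.915), -1.30 (0.420) and -5.24 (0.133). EPHA3, a receptor for ephrins, and C1QL3, a secreted protein of the C1q family, stood at -4.76 ± 1.06 and -6.39 ± 1.38 with the library (adjusted p = 0.0425 and 0.0368) and at -2.56 and -2.70 without it (0.115 and 0.187). Without uterus month 6 library 1, C1QL3 stood at -5.22 (0.0892). In the uterus EPHA3 was at 20.4, 14.1, 14.6, 28 and 21.8 CPM at day 1 and at 43.1, 92.2, 72.6, 55.4 and 42.4 CPM at month 6, without overlap.

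Across 34 gene lists for cell types and pathways, 8 of 690 distinct genes were called with all libraries and 11 of 695 without ovary day 1 library 3, beside 0.234% and 0.842% of all genes. Without that library the oocyte list had the lowest median of the lists with at least 5 members tested, and with it the adipocyte list lay lower still. The oocyte median stood at -3.02 without the library and at -2.69 with it, against -0.06 and -0.09 for all genes, and 19 of 20 members lay below 0 in both fits. Without the library 3 members were called, all lower (ZP2, GDF9 and NLRP14), and with it 0, while 6 had an unadjusted p under 0.05. The median fitted change of its members was -3.07 in the ovary and -0.11 in the uterus. In summed CPM the list was at 10.1 in ovary day 1 library 3 and ran from 271 to 1093 in the other 4 ovaries of day 1. The ovaries of month 6 ran from 57.1 to 124, above that library and below the other 4, and the uterus from 8.52 to 16. The germ cell and meiosis list stood at -1.19 without the library, with 16 of 20 members below 0 and 2 called lower (MOV10L1 and TDRD1).

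At the other end stood the ciliated and oviduct epithelium list, genes of the moving cilia that line the oviduct. Its median was 3.34 without ovary day 1 library 3 and 3.58 with it, with 27 of 27 members above 0 in both fits and 0 called by edgeR, while 3 had an unadjusted p under 0.05 without the library. The fitted changes had a median of 1.26 in the ovary and -2.08 in the uterus. The summed level of the list lay between 167 and 2989 CPM in the uterus at day 1, highest in library 5, and between 179 and 2539 CPM in the ovary at month 6, highest in library 1, and between 149 and 1249 CPM in the ovary at day 1 and 199 and 1401 CPM in the uterus at month 6, so the groups of each organ overlapped. The median became -0.39 with limma-voom and its quality weights, and ran up to 6.02 without uterus month 6 library 3.

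Of the uterine epithelium and gland list, 3 of 32 members were called lower in both fits (GRP, SERPINA14 and CXCL14) and 0 higher. Its median nevertheless lay at 1.05 without ovary day 1 library 3, with 19 of 32 above 0, and at -0.36 with it, so the called members and the middle of the list differ in sign without that library. The insulin and IGF list had 1 lower call in both fits (IGFBP1) and a median of -0.24 without the library. The macrophage and the nerve lists had 1 lower call each without it (IRF8 and STMN2), against medians of 0.82 and 0.85 on the other side of 0.

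Some lists rested on ovary day 1 library 3. The adipocyte list stood at -3.34 with 3 lower calls (DGAT2, PCK1 and UCP1) when it was in, and at -0.05 with none when it was out, where 2 had an unadjusted p under 0.05. The urothelium and bladder list went from -2.47 with 1 call (SNX31) to -0.52 with none (1 unadjusted). The smooth muscle list moved from -0.89 to -0.19 and the oxytocin and prostaglandin list from -1.21 to -0.69, with 0 called by edgeR in either fit. Without the library 1 smooth muscle and 5 oxytocin and prostaglandin genes had an unadjusted p under 0.05, all lower.

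Growth and immune lists held no further call. The cell cycle list had median fitted changes of -0.90 in the ovary and -1.89 in the uterus without the library, and its median difference was 0.73, with 25 of 35 members above 0, 0 called by edgeR and 0 under an unadjusted p of 0.05. The interferon response list stood at 1.21 (20 of 23 above 0), with uterus day 1 library 3 the highest in summed level at 2949.7 CPM against a median of 1388. With all libraries the list stood at 0.89, and at 0.41 when uterus day 1 library 3 was left out. Lymphocyte genes were higher at month 6 in both organs by their fitted medians, 1.17 and 1.47, with a median difference of -0.41. The granulosa list stood at 0.01, the steroidogenesis and theca list at -0.27 and the steroid hormone receptor list at -0.04. Granulosa genes were spread widely between ovaries, from 820.4 to 4368 summed CPM at day 1 without library 3. None of the lists other than the oocyte, germ cell and meiosis, uterine epithelium and gland, insulin and IGF, macrophage, nerve, adipocyte and urothelium lists had a member called by edgeR in either fit.

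**Figure D3:**
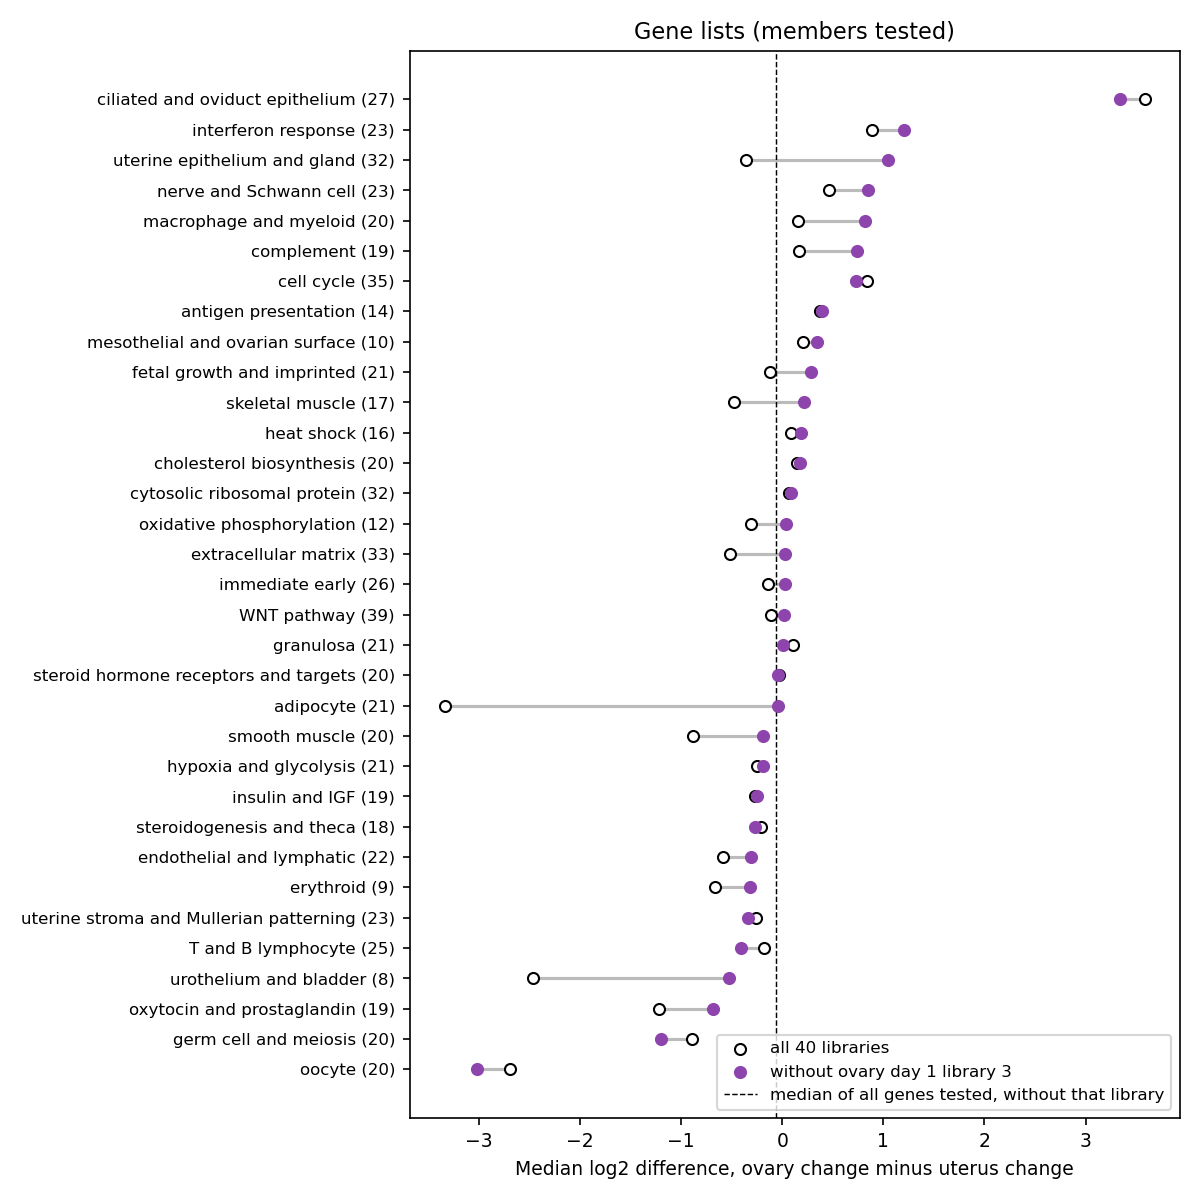
Median log2 difference of each gene list with at least 5 members tested (ovarian change minus uterine change), with all libraries (open circles) and without ovary day 1 library 3 (purple). The dashed line is the median of all genes without that library, and the number after a list is its members tested. The ciliated list lies highest in both fits, the oocyte list lies lowest without the library, and the adipocyte and urothelium lists move most when the library is left out.

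Reference genes of reproduction, growth and immunity were given values whether or not they were called, and for those that follow the difference did not pass the test. ESR1 and PGR, the receptors for estrogen and progesterone, were higher at month 6 in both organs by their fitted changes (0.84 and 1.2 for ESR1, 0.91 and 1.45 for PGR) and had differences of -0.35 ± 0.83 and -0.53 ± 0.63 (adjusted p = 0.956 and 0.860). The oxytocin receptor OXTR was at 141, 53.6, 4.37, 21.8 and 0.0816 CPM in the uterus at day 1 and at 190.2, 768, 144, 382 and 252 CPM at month 6, with no overlap, and at most 7.89 in the ovary (-3.96 ± 1.55, adjusted p = 0.303). KERA, a proteoglycan of connective tissue, was at 112, 62.6, 41.5, 42.5 and 100.5 CPM in the uterus at day 1 and at 5.26, 6.83, 3.25, 5.98 and 9.996 CPM at month 6, also without overlap. In the ovary KERA was at 0.890 to 12.7 and 1.69 to 5.31 CPM, and the difference was 2.30 ± 0.80 (adjusted p = 0.228). When ovary day 1 library 3 was left out, ESR1 was at -0.43 (0.945), PGR at -0.81 (0.657), OXTR at -4.27 (0.200) and KERA at 2.26 (0.227).

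Other reference genes had fitted changes of the same sign in both organs. FBXO40, part of a ubiquitin ligase known from muscle, was at 4.10 to 12.9 CPM in the ovary at day 1 and 0.570 to 1.45 at month 6, and at 0.408 to 2.13 and 0.0766 to 0.694 in the uterus. The ovarian change was larger (-3.30 against -1.86), but the difference of -1.44 ± 0.73 was not called (adjusted p = 0.468). FOS, an early response gene, was higher at month 6 by 2.27 in the ovary and 1.58 in the uterus (0.69 ± 0.83, 0.866), and IGF2, a fetal growth factor, lower by fitted changes of -0.72 and -1.52 (0.80 ± 0.54, 0.649). MKI67, a protein of dividing cells, had fitted changes of -1.14 and -2.66 (1.52 ± 1.38, 0.775). Leaving out ovary day 1 library 3 gave differences of -1.26 for FBXO40, 0.84 for FOS, 0.85 for IGF2 and 1.43 for MKI67, none of them called (lowest adjusted p 0.556).

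Ovarian somatic genes varied widely between goats of 1 age. FSHR was at 6.79, 17.4, 0.0701, 234 and 136 CPM in the ovary at day 1 and at 39.8, 2.91, 157, 31.3 and 129 at month 6, with the groups overlapping throughout, and at most 0.146 in the uterus (-1.25 ± 2.19, adjusted p = 0.927). AMH, a hormone of growing follicles, ranged over 0.315 to 216 and 2.18 to 174 CPM (1.07 ± 2.11), and INHA, an inhibin subunit, over 0.245 to 107 and 1.70 to 205 (1.95 ± 1.34). In the fit without ovary day 1 library 3 the differences were -1.58 for FSHR, 0.75 for AMH and 1.63 for INHA, with adjusted p of at least 0.696. CYP19A1, the enzyme that makes estrogens, reached 374 CPM in ovary month 6 library 5, against at most 23.1 in any other of the 10 ovaries. Its uterine libraries held 9 counts in all, so its difference of 2.10 ± 4.00 is little constrained. LOC102182663, which is CYP17A1 of androgen synthesis, had no count in the 10 uteri and is given no difference; it was at 0.245 to 156 CPM in the ovary at day 1 and 0.323 to 68.6 at month 6. DDX4, a helicase of germ cells, had fitted changes of -2.75 in the ovary and -1.51 in the uterus without ovary day 1 library 3, and so a difference of -1.24 ± 1.14 (0.783). ZP3 stood at -3.04 ± 1.42 (0.389), with the uterus at most 0.374 CPM.

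The gap between the organs at each age describes the course of the fitted group levels. It is the fitted log2 level in the ovary minus that in the uterus, here without ovary day 1 library 3, and the values at months 2 and 4 are descriptions without a test. For GRP the gap was 0.49 at day 1, -8.17 at month 2, -10.62 at month 4 and -13.42 at month 6. On the log2 scale alone, most of it was present by month 2, and at month 6 uterus library 2 was far above the others. KL likewise went from 0.96 to -2.09 by month 2 and then to -2.18 and -2.68. SERPINA14 stood at 4.8, 2.09, -1.68 and -7.85, and its difference from day 1 to month 6 in this fit was -6.37 in place of -12.65 when uterus month 6 library 2 was also left out. CXCL14 stayed on the ovarian side until month 4 (1.91, 0.89 and 1.55) and stood at -6.53 at month 6, where uterus library 2 is high.

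The genes that crossed did so by different ages. TMOD1 stood at 3.06, 0.83, -0.44 and -0.85, and PAQR7 at 2.19, -0.50, -0.68 and -1.79. RGS16 narrowed from 6.09 to 4.72, 2.49 and 1.38 without crossing. The oocyte genes also stayed higher in the ovary at every age: ZP2 went through 7.11, 4.96, 3.53 and 2.91, and GDF9 through 4.02, 2.74, 1.79 and 1.36. On the other side VMO1 went through -8.50, -4.69, -1.20 and -0.82, and JAKMIP2 from -2.32 to 2.92, passing 0 between months 2 and 4.

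**Figure D4:**
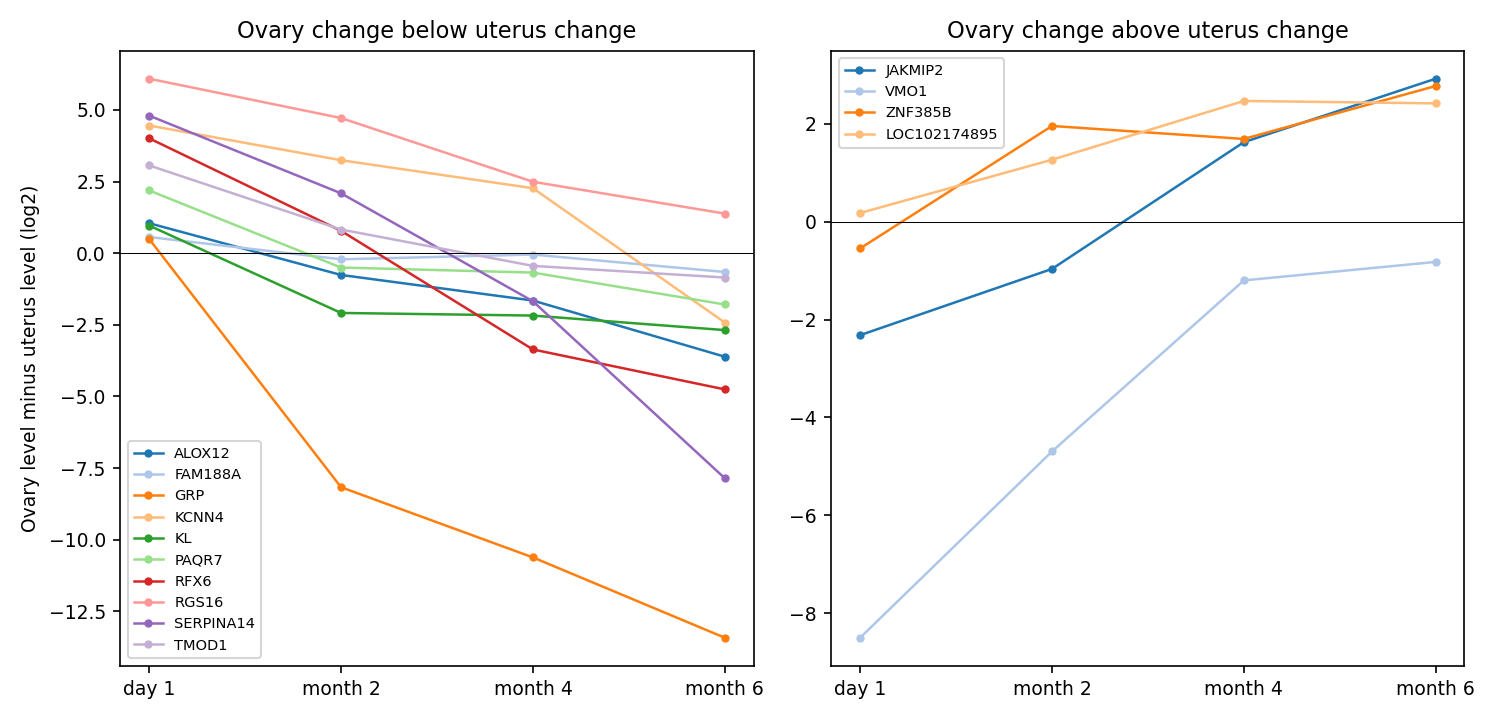
Fitted ovary level minus uterus level (log2) at each of the 4 ages without ovary day 1 library 3, for 10 genes called lower in both fits (left) and for 4 genes called higher (right). GRP goes from 0.49 at day 1 to -8.17 at month 2 and -13.42 at month 6, RGS16 stays above 0 at every age, and VMO1 stays below 0 while its gap narrows.

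How many genes were called depended on single libraries, beyond ovary day 1 library 3. Leaving out 1 of the 20 libraries gave between 6 and 175 calls in place of 48, and 7 of the 20 counts lay within 1.5 times of it. The counts were 6 without ovary month 6 library 1 or 5, 8 and 9 without its library 4 or 3, 9, 10, 14 and 14 without uterus day 1 library 2, 3, 1 or 5, and 15 and 22 without uterus month 6 library 2 or 1. They were 23, 132 and 175 without ovary day 1 library 2, 4 or 3. Of the 175 called without library 3, a further omission left between 22 and 320. Without library 3, the lowest counts were those without ovary day 1 library 5 (22) or 2 (27), and the highest that without library 4 (320). The genes named above that stayed called in each of the 20 omissions were GRP, KL, TMOD1, RGS16, FAM188A and LOC102174895.

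**Figure D5:**
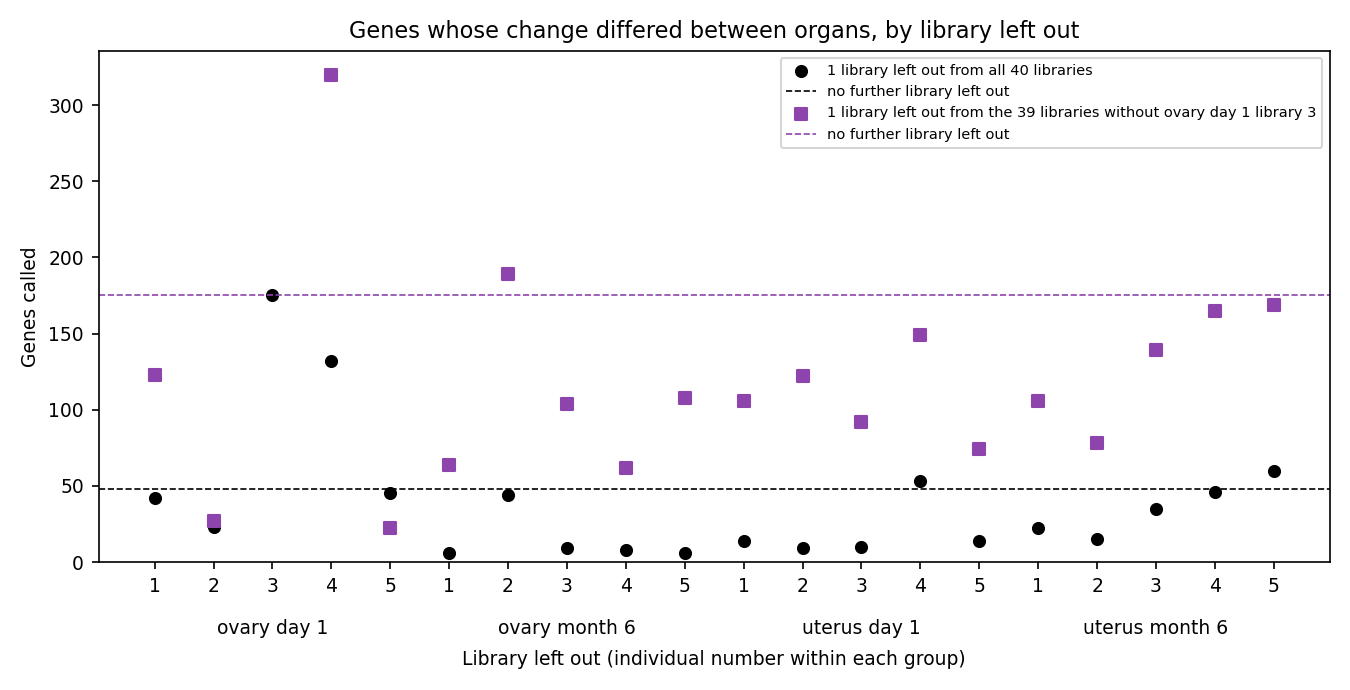
Number of genes called (y axis) when the library named on the x axis was left out, from all 40 libraries (black circles, dashed line at 48) and from the 39 libraries without ovary day 1 library 3 (purple squares, dashed line at 175). Leaving out ovary day 1 library 3 or 4 raises the black count to 175 and 132, and leaving out ovary day 1 library 2 or 5 takes the purple count to 27 and 22.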

How the data were processed

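Total RNA was extracted with TRIzol and sequenced as Illumina libraries, per the labels' protocols. The authors deposited whole-number read counts for 30049 genes in 40 libraries. The submitters' processing notes name RSEM 1.3.0, StringTie 1.3.3b, HISAT2 and fastp 0.23.1. No source used here states the genome build, annotation or strand setting, and genes that overlap or share near-identical copies may exchange reads. Library totals ran from 31.9 to 62.7 M counts (median 51.3). Of the rows, 28910 carried an NCBI gene number, all matched to a RefSeq symbol (10710 of them LOC identifiers), and 1139 were assembled loci.

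From these counts, edgeR 4.0.16 (R 4.3.3; TMM scaling, filterByExpr, robust quasi-likelihood fit of 8 groups) tested the contrast over all genes. CPM values are not TMM-adjusted. The procedure was tested on simulated data. The simulation gave all genes the same spread, placed known differences only in genes with ample counts in every group, and held no outlying library. It therefore does not cover genes with few counts in a group or single extreme libraries. Genes were named by p within each direction (12 called with and without ovary day 1 library 3, 10 only without it, 5 only with it), with at most 2 LOC identifiers in each direction, a fixed set of reference genes and the 2 called genes of smallest p in each list. A gene that this rule names is not reported here. The samples and gene lists (722 of 807 listed genes matched) were chosen with earlier results of these data known. Alternatives used DESeq2 1.42.0 and limma 3.58.1. No replicates were duplicates. Ratios of counts carry 95% counting intervals, which cover counting error alone.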

Additional observations from a re-analysis of the deposited data

Results flagged for a closer look

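The tested difference of change between organs is itself what sets 48 genes apart with all libraries and 175 without ovary day 1 library 3.

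Single libraries stood apart from the other 4 of their group on the log2 scale, where the gap to the nearest library divided by the range of the group passed 0.71. Chance gives this in about 1 in 20 groups. Ovary day 1 library 3 did so in 14 genes. Many of these had calls that changed when that library was left out, so its extreme place in them was favoured by how they were named. The counts given here were not compared with the chance rate. It was the highest for ADIPOQ (0.747), DGAT2 (0.906) and UCP1 (0.799). It was the lowest for the germ cell and oocyte genes DDX4 (0.728), GDF9 (0.740), TDRD1 (0.781), ZP2 (0.762) and ZP3 (0.804). It was also the lowest for CYP19A1 (0.727), HMGXB3 (0.793), HS3ST5 (0.749), NAT10 (0.728), RGS16 (0.821) and SLC7A6 (0.773).

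In the other ovaries of day 1, library 1 was apart for ESR1 (0.747, at 176 CPM) and library 4 for FBXO40 (0.763, at 4.10 CPM). At month 6, ovary library 1 was apart for KERA (0.809, at 5.31 CPM), library 2 for LOC102182663 (0.758, at 0.323 CPM) and library 3 for ZNF207 (0.777, at 194 CPM). Uterus month 6 library 2 was apart for GRP (0.767) and IGFBP1 (0.813), library 1 for C1QL3 (0.906, at 308 CPM) and library 3 for the plasma cell gene JCHAIN (0.744, at 622 CPM). Uterus day 1 library 5 was apart for JCHAIN (0.762, at 63.2 CPM) and for MKI67 (0.800, at 4.26 CPM).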

How the results depend on the processing

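Of the 48 calls, the count stayed within 1.5 times with DESeq2 size factors in edgeR (54), library totals (32), no robust estimation (48), a minimum of 1 CPM in 5 libraries (35), no minimum difference (48) and the 4 groups alone without ovary day 1 library 3 (60, of which 16 shared with the 48). It was 207 without ovary day 1 library 3 and uterus month 4 library 5 (41 shared with the 48), 7 with the 4 groups alone (5 shared), 23 with no filter on low counts, 384 with limma-voom quality weights (28 shared), 318 with DESeq2 (40 shared) and 468 with DESeq2 without ovary day 1 library 3 (40 shared). Leaving out 1 library gave 6 to 175. Of the 175, the count was 60 with the 4 groups alone, 468 with DESeq2, 621 with limma-voom and 22 to 320 with a further library left out. These alternatives for the 175, other than leaving out libraries and dropping the minimum difference, were chosen after seeing the data. The cause of these shifts was not tested.

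The labels do not say that individual numbers pair the organs, and the data do not settle it. Of the 20 same-numbered pairs of ovary and uterus, 9 correlated above 0.1 (range -0.16 to 0.31), and 3 of the 10 at day 1 and month 6. Each library was set against the 5 of the other organ at its age. By this, 8 ovaries and 10 uteri of 20 correlated best with their own number, and 2 ovaries and 3 uteri of 10 at day 1 and month 6. With a replicate block the count was 1, and 7 without ovary day 1 library 3. With all libraries GRP kept its call under the block (adjusted p = 0.00362), and KL (0.108), TMOD1 (0.0885), RGS16 (0.108), FAM188A (0.0699) and LOC102174895 (0.0699) did not.

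Some genes that were not called changed sign. With the replicate block FOXA2 was at -0.62 and JCHAIN at 0.32. With the block and without ovary day 1 library 3, ADIPOQ was at 1.58, FOXA2 at -1.48, JCHAIN at 0.58, LOC102173131 at -0.0792 and STAR at 0.52. With limma-voom, ADIPOQ was at 1.81, COL1A1 at 0.86, FOXA2 at -3.11, FSHR at 0.60 and STAR at 1.19. ADIPOQ was at 0.0184 without ovary day 1 library 3 and uterus month 4 library 5. Leaving out 1 library gave ESR1 -0.98 to 0.47 (highest without ovary day 1 library 1), CYP19A1 -1.08 to 5.46 (below 0 at -1.08 without ovary month 6 library 5 and -0.38 without uterus day 1 library 1), LOC102173131 -0.19 to 4.88 (lowest without uterus day 1 library 3) and JCHAIN -2.38 to 1.49 (highest without uterus month 6 library 3).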
